A study of Mus musculus with 8 samples.

Results

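Klf2+ S1pr1+ cells are the tumour OT-I T cells in which at least 1 UMI, a counted transcript molecule, of Klf2 and at least 1 of S1pr1 were read. They were taken from barcodes with exactly 1 called guide and at most 10% of gene UMIs in mitochondrial genes, and they made up 738 of 23337 such cells, or 3.16%. OT-I T cells are CD8+ T cells whose receptor recognises an ovalbumin peptide. Those studied here came from Cas9 knock-in mice, were activated in culture and carried a lentiviral CROP-seq library of guides against metabolic genes, with a CD90.1 cassette that marks the transduced cells. They were transferred into Rosa26-Cas9 recipients bearing KPC_OVA tumours, an ovalbumin-expressing line of pancreatic ductal adenocarcinoma cells grown in the pancreas, and CD90.1+ cells were sorted from the primary tumour 7 days later. Mice received anti-PD-1, an antibody that blocks the inhibitory receptor PD-1, in 3 libraries and control IgG in 1 library. Every group therefore shared Cas9, the guide library, the tumour line and the day, and the antibody was the only labelled difference. The cells came from several mice per treatment in 2 independent experiments, but which mice and which experiment entered a library is not stated, so p-values measure the spread between libraries, which may be technical in part, and the single IgG library has no replicate. The titles of anti-PD-1 replicates 1 and 2 differ only in a numbered ending, so they may be 1 pool of cells loaded as 2 libraries, and n is then 2 wherever 3 anti-PD-1 libraries are counted.

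Klf2 encodes a transcription factor that is kept on by FOXO1 in resting T cells and is lost after strong antigen receptor and PI3K signalling. It activates S1pr1, the receptor for sphingosine 1-phosphate that lets lymphocytes leave tissues for blood and lymph. Loss of this pair is a known step in making T cells stay in tissue, whereas naive and recirculating memory T cells keep it.

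The 4 libraries held 2552, 2616 and 6530 retained cells in the 3 anti-PD-1 libraries and 11639 in the IgG library, with medians of 16744.5, 16223.5, 11968.5 and 6298 UMIs per cell. A transcript was thus less likely to be read in an IgG cell than in an anti-PD-1 cell. The Klf2+ S1pr1+ cells numbered 223, 190, 215 and 110 in these libraries, and none of their 738 barcodes occurred among those of another library. Within each library their depth lay near that of the other cells, with medians of 17016 against 16741 UMIs, 14405 against 16336, 10756 against 12001 and 6912.5 against 6293. The mitochondrial share was slightly higher in them in each library, at 3.38% against 3.15%, 2.59% against 2.18%, 1.66% against 1.39% and 2.24% against 1.91%. No doublet caller was run, and the comparisons here used only single-guide barcodes.

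The defining genes were compared as a description only, since the rule set them. Klf2 lies on chromosome 8 at 72319033 to 72321656 on the plus strand and S1pr1 on chromosome 3 at 115710433 to 115715072 on the minus strand, in GRCm38. In UMIs per 1000000 gene UMIs (CPM), Klf2 was 293, 323, 390 and 433 in Klf2+ S1pr1+ cells, with libraries in the order anti-PD-1 replicate 1, 2, 3 and then IgG here and hereafter, against 29.5, 33.2, 10.9 and 13.3 in the other cells. S1pr1 was 103, 116, 139 and 183 CPM against 4.67, 2.30, 3.97 and 3.76. The members held 50.5%, 42.8%, 54.7% and 25.0% of all Klf2 UMIs of their libraries. The median member had 4 Klf2 UMIs in each anti-PD-1 library and 2 in IgG. For S1pr1 the median was 2 UMIs in anti-PD-1 replicates 1 and 2 and 1 UMI in replicate 3 and IgG. The rule thus selected many cells above its limit for Klf2 and many cells at its limit for S1pr1.

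The overlap of the 2 transcripts is a description of the same defining values, with no test. S1pr1 was read in 29.8%, 24.6%, 32.4% and 15.8% of Klf2+ cells but in 8.43%, 4.83%, 4.79% and 2.56% of cells without a Klf2 UMI. After each cell was thinned to 4000 UMIs the shares were 18.8%, 17.8%, 24.7% and 9.87% against 4.05%, 2.25%, 2.32% and 1.51%. No cell type that should lack both genes was set apart in these sorted T cells, so the level that free RNA gives was not measured.

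The share of Klf2+ S1pr1+ cells was 8.74% (exact 95% interval 7.67 to 9.90), 7.26% (6.30 to 8.33) and 3.29% (2.87 to 3.75) with anti-PD-1 and 0.945% (0.777 to 1.14) with IgG. Intervals cover counting error only. The anti-PD-1 mean was 6.43% ± 2.82 (SD, n = 3), which was 5.49 percentage points above IgG, with p = 0.25 in a two-sided exact permutation test over libraries, the smallest that 3 against 1 library allows. With replicates 1 and 2 averaged as 1 sample the mean was 5.65% ± 3.33 (SD, n = 2), 4.70 points above IgG, with p = 0.667 in the same exact permutation test, whose smallest p is then 0.333. At 4000 UMIs per cell the shares were 2.61%, 2.55% and 1.40% against 0.383%, a difference of 1.80 points, and 25, 27, 236 and 1968 shallower cells were left out. All 3 anti-PD-1 libraries lay above IgG at either depth, and replicate 3 lay below replicates 1 and 2. The depth of the IgG library moves with this difference, and treatment and library cannot be told apart here.

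**Figure D1:**
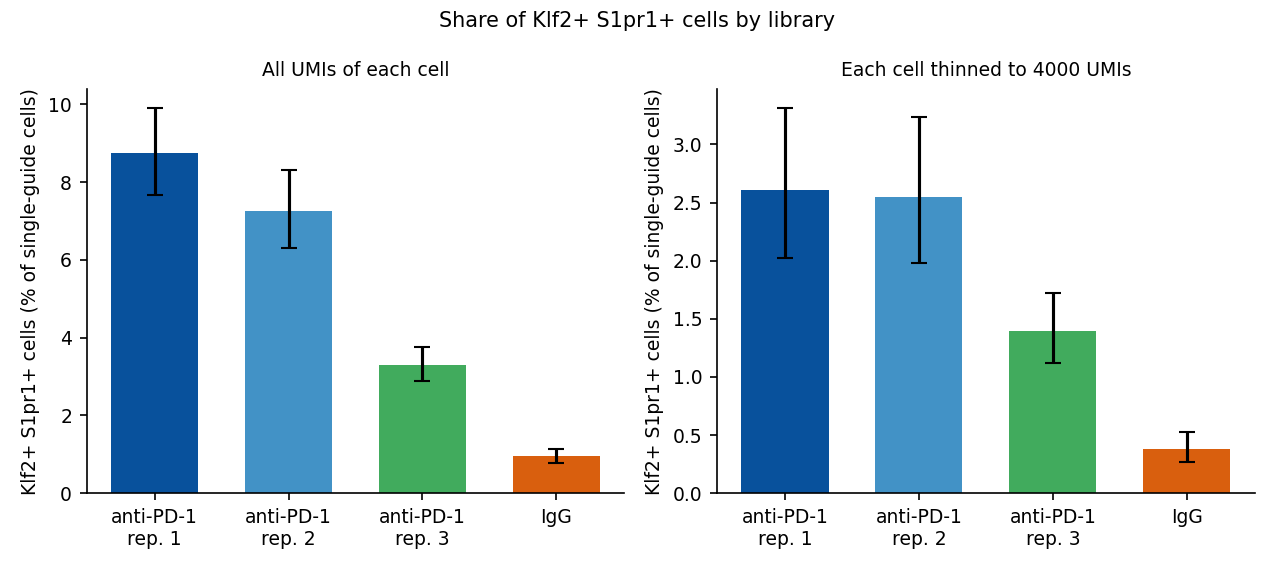
Share of Klf2+ S1pr1+ cells among single-guide cells (y axis, %) in each library, from all UMIs (left) and after thinning each cell to 4000 UMIs (right). Bars are libraries and whiskers exact 95% binomial intervals. The 3 anti-PD-1 libraries lie above IgG in both panels, at 3.29% to 8.74% against 0.945% on the left and 1.40% to 2.61% against 0.383% on the right.

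The rule did not use the markers Klf3, Rasgrp2 and Cxcr3, but these were chosen with earlier results of these data known. They were higher in Klf2+ S1pr1+ cells in every library, which describes the cells and is not an independent test. Klf3, a KLF family transcription factor that mostly represses, was 38.5, 45.7 and 52.9 CPM in Klf2+ S1pr1+ cells across the 3 anti-PD-1 libraries and 54.8 with IgG, against 4.18, 4.84, 4.06 and 3.97 in the other cells. Rasgrp2, which activates the GTPase Rap1 and through it integrins, was 119, 141, 130 and 142 CPM against 22.9, 23.4, 18.5 and 18.2. Cxcr3, the receptor for the interferon-induced chemokines Cxcl9 and Cxcl10, was 112, 145, 138 and 144 CPM against 36.8, 37.9, 43.9 and 45.2. The ranges of the members and of the other cells did not overlap for any of the 3 genes. The share of all tested genes without overlap was not counted.

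These contrasts were tested with edgeR's quasi-likelihood test on UMIs summed over the members and over the other cells of each library, with the library as a block and Benjamini-Hochberg adjustment over all genes tested. Of 11777 genes, 1730 (14.7%) were higher and 1849 (15.7%) lower in Klf2+ S1pr1+ cells at an adjusted p below 0.05, and the median log2 fold change over all genes was -0.007. Klf3 rose by 3.40 ± 0.12 (log2, SE; adjusted p = 8.3e-16), Rasgrp2 by 2.60 ± 0.08 (adjusted p = 2.6e-16) and Cxcr3 by 1.67 ± 0.07 (adjusted p = 1.4e-14). DESeq2 called 1315 genes higher and 1275 lower.

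The start sites of these 3 genes are shown because they moved with Klf2, whose protein family binds CACCC boxes. The windows run from 250 bases before to 50 bases after the RefSeq start in GRCm38.p6, 5′ to 3′ along the gene. Klf3 was read at chr5:64803271-64803570 on the plus strand, Rasgrp2 at chr19:6399625-6399924 on the plus strand and Cxcr3 at chrX:101734098-101734397 on the minus strand, and capitals mark CACCC or its reverse complement GGGTG.
Klf3: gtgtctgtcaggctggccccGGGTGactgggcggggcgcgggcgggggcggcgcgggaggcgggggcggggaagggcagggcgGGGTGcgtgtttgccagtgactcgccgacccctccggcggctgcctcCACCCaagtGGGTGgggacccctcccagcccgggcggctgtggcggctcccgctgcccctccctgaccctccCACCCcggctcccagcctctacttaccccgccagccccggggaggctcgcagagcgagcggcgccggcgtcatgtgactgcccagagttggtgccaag
Rasgrp2: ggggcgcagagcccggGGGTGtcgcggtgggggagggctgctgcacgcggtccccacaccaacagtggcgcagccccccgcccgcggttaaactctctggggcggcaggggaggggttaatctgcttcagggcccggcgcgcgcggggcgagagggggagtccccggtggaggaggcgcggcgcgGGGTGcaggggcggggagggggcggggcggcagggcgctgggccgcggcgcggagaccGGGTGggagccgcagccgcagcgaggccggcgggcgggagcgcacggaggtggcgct
Cxcr3: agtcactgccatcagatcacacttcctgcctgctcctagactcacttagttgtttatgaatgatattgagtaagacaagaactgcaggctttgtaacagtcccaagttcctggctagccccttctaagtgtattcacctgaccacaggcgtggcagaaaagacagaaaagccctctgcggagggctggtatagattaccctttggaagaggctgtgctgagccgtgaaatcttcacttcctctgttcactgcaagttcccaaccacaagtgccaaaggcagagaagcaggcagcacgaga

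The Klf3 window held 5 CACCC matches, that of Rasgrp2 held 3 and that of Cxcr3 none. Over windows of the same length, CACCC on either strand occurred in 64.2% of 1324 genes that were higher in Klf2+ S1pr1+ cells, 62.0% of 1457 that were lower and 62.1% of all 9052 tested genes with a window. The FOXO motif GTAAACA was in 3.1%, 1.65% and 2.54%, and the TCF/LEF motif CTTTGA in 11.3%, 12.1% and 12.1%. No window printed here held the FOXO or the TCF/LEF letters. The shares are descriptions, and a match is not evidence of binding.

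The 12 largest rises among genes with an average log2 CPM above 4 include Rasgrp2 and Cxcr3. Of these 12 genes, Tcf7, which encodes TCF1, was 44.8, 57.6, 64.2 and 104 CPM in Klf2+ S1pr1+ cells of anti-PD-1 replicates 1 to 3 and IgG, against 10.8, 9.11, 10.6 and 23.1 in the other cells (log2 fold change 2.33 ± 0.10). Ripor2 was 77.4, 87.9, 83.1 and 73.8 CPM against 16.5 to 20 in the others (2.10 ± 0.08). Both groups of values were far apart in every library. Cdc25b, a phosphatase that activates cyclin-dependent kinases before mitosis, rose by 1.73 ± 0.08 and the Ras and Rap GTPase-activating gene Rasa3 by 1.70 ± 0.08. Gramd3 rose by 1.74 ± 0.08. Arhgef18, a guanine nucleotide exchange factor, rose by 1.57 ± 0.10, Ssh2, a cofilin phosphatase, by 1.47 ± 0.08 and Pdlim1, an actin-associated adapter, by 1.47 ± 0.11. Lef1, the partner of TCF1, rose by 1.53 ± 0.08, and S1pr4, another sphingosine 1-phosphate receptor, by 1.52 ± 0.07. The choice of these 12 genes required the same sign in each library and an adjusted p below 0.05. Their adjusted p was at most 5.8e-10 (edgeR).

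**Figure D2:**
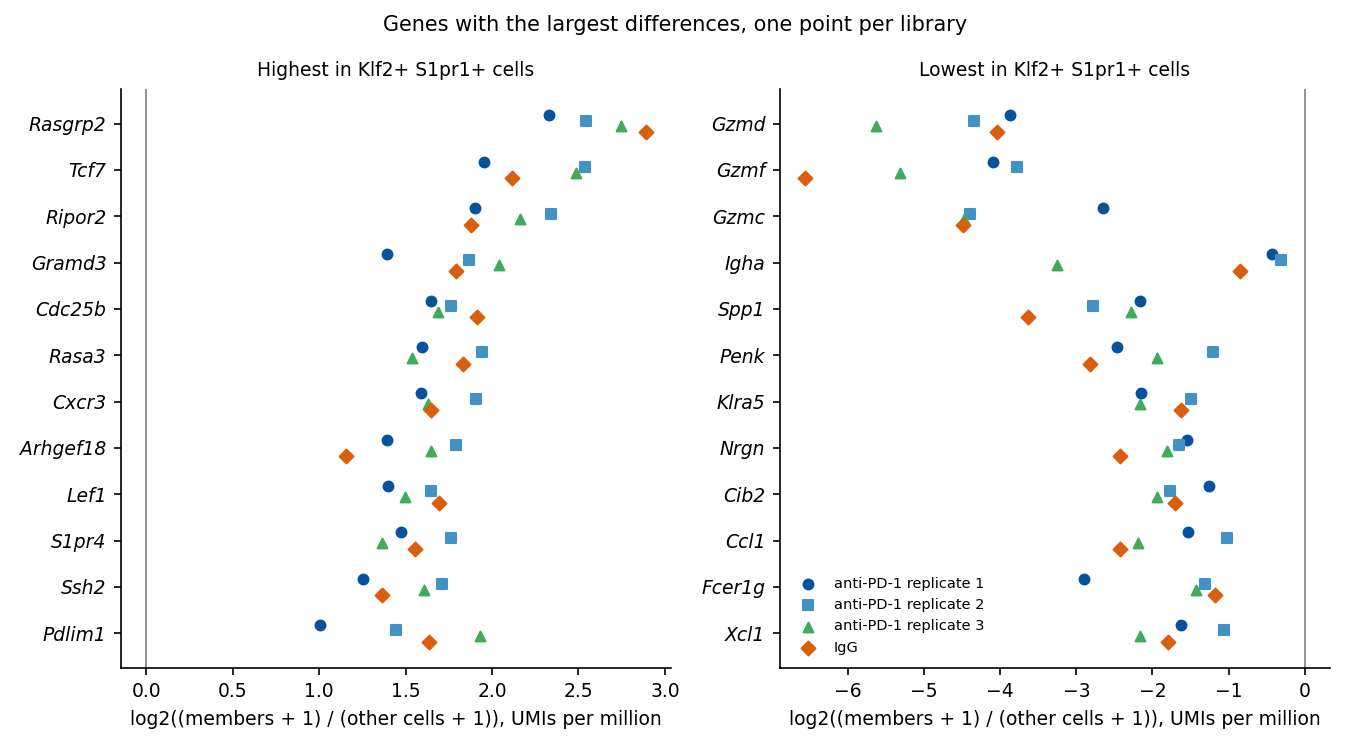
Ratio of Klf2+ S1pr1+ cells to other cells on a log2 scale (x axis, after adding 1 CPM to each) for the 12 genes with the largest rises (left) and the 12 with the largest falls (right). Only genes with an average log2 CPM above 4 were ranked. Each point is 1 library. All points of the left panel lie above 0 and all of the right panel under 0, since the choice required the same sign in each library. Igha is low mainly in anti-PD-1 replicate 3.

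Of 19 tested genes of quiescence and tissue egress, 15 were higher, 1 was lower and 3 did not pass, with a median log2 fold change of 0.53. The list holds Klf3 and Rasgrp2, the markers given above. It also holds Cd69, which was among the higher genes and is on the tissue residency list below as well. Gpr183, a receptor that guides lymphocytes by oxysterols, rose by 1.37 ± 0.08, with 124, 130, 62.8 and 70.3 CPM in Klf2+ S1pr1+ cells and 47.2, 41.8, 27.2 and 27.6 in the others. Itgb7, an integrin chain used in gut homing, rose by 1.34 ± 0.06. Ccr7, a chemokine receptor for entry into lymph nodes, did not pass the test, with 23.3, 34.3, 17.5 and 15.5 CPM against 29.4, 26.6, 14.9 and 22.5 (log2 fold change -0.03 ± 0.12, adjusted p = 0.87 by edgeR). The 2 groups overlapped for Ccr7.

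Among genes of memory and precursor T cells, 8 of 16 were higher and 3 lower (median 0.27). Slamf6, a surface marker of progenitor-like exhausted T cells, rose by 1.08 ± 0.07, Id3, an inhibitor of E proteins, by 2.36 ± 0.25 and Il7r, the receptor for the survival cytokine IL-7, by 0.53 ± 0.09. Id3 was 2.64, 4.95, 26.4 and 70.3 CPM against 1.60, 2.01, 3.45 and 9.38, so its level differed more between libraries than between the groups in anti-PD-1 replicates 1 and 2. Satb1, a chromatin organiser, fell by 0.54, Cd27, a costimulatory receptor, by 0.27 and Bach2, a repressor of effector genes, by 0.65 on the log2 scale. A Tcf7 UMI was present in 32.3%, 38.4%, 34.0% and 37.3% of Klf2+ S1pr1+ cells and in 9.70%, 8.74%, 6.54% and 9.62% of the others, which left 479 of 738 members without one. A cell without a Tcf7 UMI may still express the gene at this depth. Mitotic genes were higher as well, and the cells are named here by their 2 genes and not as memory cells.

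Receptors and integrins of homing were mixed, with 11 of 19 higher and 4 lower (median 0.56). Ly6c2, a marker of effector and memory CD8+ T cells, rose by 1.17 ± 0.06, Ccr2, a receptor for inflammatory chemokines, by 1.17 ± 0.08, and the chains of the integrin VLA-4, Itgb1 and Itga4, by 1.07 ± 0.06 and 0.94 ± 0.06. Itgb1 was 401, 469, 815 and 750 CPM in Klf2+ S1pr1+ cells against 230, 213, 314 and 328 in the others. Cxcr6, a receptor that holds T cells in tumours and tissue, fell by 0.71 on the log2 scale and Itgav, an integrin chain, by 0.93. Of 9 genes of tissue residency, 1 was higher and 7 were lower (median -0.66). Itgae, the CD103 integrin that binds epithelium, fell by 1.19 and Rgs1, a brake on chemokine receptor signalling, by 0.67 on the log2 scale. The exception was Cd69, whose protein removes S1PR1 from the surface, which rose by 0.50 ± 0.06 and was 287, 302, 135 and 129 CPM against 200, 197, 90.1 and 95.5.

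The granzymes did not move together. Of 16 genes of killing tested, 12 were lower and 2 higher (median -0.50). The cluster Gzmc, Gzmd, Gzme, Gzmf and Gzmg, serine proteases made by strongly activated cytotoxic T cells, was close to undetected. Gzmc was 3.96, 1.46, 6.87 and 5.95 CPM in Klf2+ S1pr1+ cells and 30.1, 50.6, 174 and 155 in the others (log2 fold change -4.34 ± 0.17). Gzmf was 1.32, 4.07, 3.43 and 0 CPM against 38.5, 68.6, 176 and 93.7 (-5.11 ± 0.18). Over all libraries the 738 members held 6 UMIs of Gzmd, 3 of Gzme and 1 of Gzmg, and the other cells held 10956, 4774 and 4735. Relative to all UMIs the other cells had 83.3 times as much Gzmd (95% interval 38.3 to 227), 72.6 times as much Gzme (24.8 to 352) and 216 times as much Gzmg (38.8 to 8534), where the intervals cover counting error only. The ratios sum UMIs over the 4 libraries without the library block, so the unequal mix of libraries in members and other cells enters them. For Gzmc the summed ratio was 29.8, a larger difference than the log2 fold change of -4.34 from the fit with the library as a block. These genes are close copies of each other, so the split of reads among them is uncertain.

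The other granzymes ran from lower to higher. Gzmb, the main granzyme of effector cells, was 1062, 979, 993 and 718 CPM in Klf2+ S1pr1+ cells against 1545, 1683, 2067 and 1162 in the others (-0.82 ± 0.06), and Prf1, the pore-forming perforin, fell by 1.45 on the log2 scale. Gzma, the other abundant granzyme, did not pass the test (0.09 ± 0.08, adjusted p = 0.44 by edgeR), though it did at 4000 UMIs per cell (0.47, adjusted p = 0.0016). Gzmm rose by 2.62 ± 0.18, with 13.2, 18.3, 17.5 and 51.2 CPM against 3.50, 2.81, 2.38 and 4.85, and Gzmk, a granzyme of memory and precursor CD8+ T cells, rose by 0.50 ± 0.06. Klf2+ S1pr1+ cells thus carried a different mixture of granzymes and still had Gzmb at high levels.

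Cytokines and chemokines showed the lowest median of the lists, -1.15, with 13 of 19 lower and 2 higher. Spp1, which encodes osteopontin, was 20.9, 10.5, 37.4 and 10.7 CPM in Klf2+ S1pr1+ cells against 97.3, 77.8, 186 and 144 in the others (-2.55 ± 0.11). Xcl1, a chemokine for cross-presenting dendritic cells, fell by 1.70 and Ccl1, the ligand of Ccr8, by 1.76. Tnfsf11, which encodes RANKL, fell by 1.49 and Ifng, the main antitumour cytokine of T cells, by 1.37 on the log2 scale. Ccl5, a chemokine stored by effector and memory T cells, rose by 0.16 ± 0.04, a call that was lost without anti-PD-1 replicate 1 (adjusted p = 0.059 by edgeR) or replicate 2 (adjusted p = 0.080), and its value was -0.24 in cells with nontargeting guides. Other large falls were in Penk, the enkephalin precursor (-2.08 ± 0.19), Klra5, a receptor of the Ly49 family (-2.04 ± 0.11), Nrgn, a calmodulin-binding protein (-1.83 ± 0.08), Cib2, a calcium-binding protein (-1.81 ± 0.15), and Fcer1g, a signalling adapter (-1.73 ± 0.19). Igha, an immunoglobulin heavy chain of plasma cells, was 1.10, 1.46, 5.15 and 3.57 CPM against 1.83, 2.05, 57.6 and 7.24, and was high in the other cells of anti-PD-1 replicate 3 alone, without which it did not pass (adjusted p = 0.14 by edgeR).

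Inhibitory receptors were lower in 11 of 12 tests and higher in none (median -0.78). Havcr2, which encodes TIM-3, was 89.9, 79.5, 93.1 and 67.9 CPM in Klf2+ S1pr1+ cells against 145, 135, 208 and 162 in the others (-0.97 ± 0.08). Lag3 fell by 0.97, Cd160 by 0.91 and Cd244a by 1.11 on the log2 scale, and the difference of Pdcd1, which encodes PD-1 itself, was smaller (-0.41 ± 0.06). Of 19 transcription factors of effector and exhausted cells, 14 were lower and 2 higher (median -0.33). Irf8 fell by 1.32, Zeb2, a factor of terminal effectors, by 1.25, the Notch effector Rbpj by 1.05 and Ikzf2, which encodes Helios, by 0.88. Tox, the factor that fixes exhaustion, fell by 0.33 on the log2 scale.

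Genes induced by the antigen receptor were lower in 13 of 18 tests and higher in none (median -0.87). Tnfrsf9, the costimulatory receptor 4-1BB, was 300, 258, 224 and 137 CPM in Klf2+ S1pr1+ cells against 557, 580, 587 and 451 in the others (-1.28 ± 0.08). Tnfrsf4, which encodes OX40, fell by 1.49, Myc, a driver of growth, by 1.02 and Il2ra, the high-affinity chain of the IL-2 receptor, by 0.93 on the log2 scale. NK cell receptors were lower in 7 of 9 tests (median -0.68), with Klrd1, which pairs with NKG2 receptors, down by 0.92, and Klre1 and Klrc1 down by 1.04 and 0.68 on the log2 scale. These receptors, like Klra5 and Ly6c2, belong to families of close copies, whose reads may be shared. Klrg1, a marker of short-lived and circulating effector cells, was the single riser, with 11.7, 11.6, 24.0 and 16.7 CPM against 2.57, 3.77, 5.41 and 4.58 (1.94 ± 0.15).

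Glycolysis and hypoxia genes were lower in 21 of 21 tests (median -0.66). Tpi1, a glycolytic enzyme, was 339, 338, 366 and 389 CPM in Klf2+ S1pr1+ cells against 582, 590, 726 and 709 in the others (-0.91 ± 0.05). Pgam1 fell by 0.71, Pkm by 0.66 and Ldha, which makes lactate, by 0.56 on the log2 scale. In the PI3K and FOXO list, 11 of 22 were higher and none lower (median 0.21). Pik3r5, a regulatory subunit of PI3K gamma, rose by 1.43 ± 0.11, Pik3ip1, an inhibitor of PI3K, by 1.21 ± 0.16, Cdkn1b, the p27 inhibitor of cell cycle kinases that FOXO factors induce, by 0.59 ± 0.07 and Pik3r1, the main regulatory subunit, by 0.51 ± 0.07.

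Mitotic genes were higher beside the quiescence genes. All 22 tested genes of G2/M were higher (median 0.79). With comparison cells matched in UMIs 21 of 22 were higher and the median was 0.51, and in cells with no Mki67 or Top2a UMI 4 of 18 were higher (median 0.41). In cells that also had no UMI of Mcm2 to Mcm7, 0 of 3 tested G2/M genes and 0 of 5 tested G1/S genes were called. Birc5, which encodes survivin, was 315, 328, 296 and 393 CPM in Klf2+ S1pr1+ cells against 153, 169, 161 and 179 in all other cells (0.94 ± 0.05). Ube2c, an enzyme of mitotic exit, rose by 0.88 ± 0.05, the cyclin Ccnb2 by 0.95 ± 0.06 and the kinetochore gene Cenpf by 0.87 ± 0.06. G1/S genes were mostly unchanged in call, with 6 of 22 higher, 1 lower and a median of 0.06. Rrm2 and Tyms, enzymes of DNA precursor synthesis, rose by 0.59 ± 0.06 and 0.37 ± 0.06, though Rrm2 was at -0.0776 in cells with no Mki67 or Top2a UMI. Uhrf1, which keeps DNA methylation in replication, rose by 0.33 ± 0.08 but was -0.32 at 4000 UMIs per cell and -0.46 in cells with no Mki67 or Top2a UMI, and Ung, which removes uracil from DNA, fell by 0.58 on the log2 scale. In cells without a UMI of Mki67, Top2a or Mcm2 to Mcm7, 11 of 19 quiescence and egress genes were higher, beside 4.84% of all genes tested there, and 14 of 19 glycolysis genes lower, beside 5.78%. In cells without a UMI of Mki67 or Top2a, a filter chosen after seeing the data, these were 16 of 19 and 19 of 21, beside 10.1% higher and 11.8% lower over all genes.

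Cycling was also counted per cell, as the share with a UMI of Mki67 or Top2a after thinning to 4000 UMIs. It was 57.0%, 55.6% and 48.8% in Klf2+ S1pr1+ cells under anti-PD-1 and 67.8% under IgG, against 42.8%, 42.9%, 39.9% and 46.6% in the other cells. Without thinning the shares were 78.0%, 71.6%, 63.7% and 61.8% against 64.3%, 63.2%, 58.4% and 51.7%. The thinned difference was 14.2 ± 5.14 percentage points (mean and SD, n = 4 libraries), higher in 4 of 4 libraries, with p = 0.13 in a two-sided exact sign permutation, the smallest that 4 libraries allow. Thinning left out 28 of the 738 members and 2228 of the other cells, most of them from IgG.

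**Figure D3:**
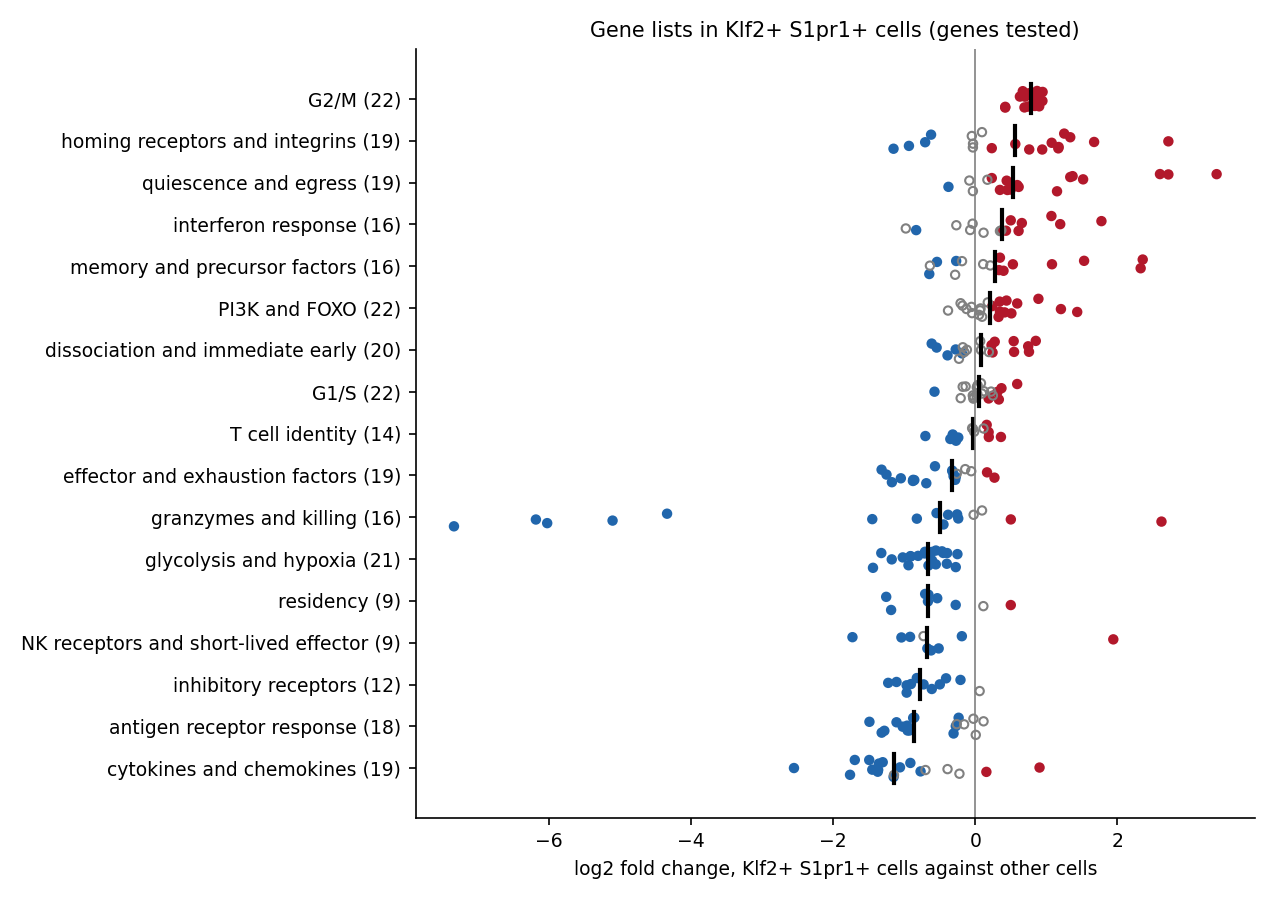
Log2 fold change of Klf2+ S1pr1+ cells against other cells (x axis) for the genes of each list (rows, number tested in brackets). Filled points passed an adjusted p of 0.05 (red higher, blue lower), open points did not, and black bars are list medians. G2/M genes lie to the right with a median of 0.79, and cytokines, antigen receptor response genes and inhibitory receptors to the left with medians of -1.15, -0.87 and -0.78.

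Interferon response genes were higher in 8 of 16 tests and lower in 1 (median 0.37). With nontargeting guides alone 1 of 9 was higher and 1 lower (median 0.049), where 2.6% and 3.03% of all genes were called in these directions. With at least 2 UMIs of each defining gene 3 of 16 were higher and 2 lower (median 0.13), beside 11.6% and 13.5% of all genes. Oas3, an antiviral sensor, rose by 1.77 ± 0.21, Irf7, the factor that amplifies the response, by 0.66 ± 0.13 and Zbp1, a nucleic acid sensor, by 0.38 ± 0.08, while Isg20, an exonuclease, fell by 0.83 on the log2 scale. Genes that respond to tissue dissociation, a list that Klf2 itself is often counted with, were split, with 8 of 20 higher, 5 lower and a median of 0.07. Fos and Zfp36, both immediate early genes, rose by 0.55 ± 0.08 and 0.54 ± 0.09, though Fos was at -0.0256 in cells with nontargeting guides, and Jund and Jun fell by 0.61 and 0.54. Levels on this list also differed between libraries. In Klf2+ S1pr1+ cells Junb was 633, 778, 212 and 150 CPM, whereas Dnajb1 was 52.3, 45.1, 60.8 and 69.1. The part of these genes in the Klf2 level and in the share per library was not tested.

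The cells were T cells by their markers. Of 14 genes of T cell identity, 4 were higher and 6 lower, with a median of -0.04. Cd8a, a chain of the CD8 coreceptor, was 482, 460, 570 and 455 CPM in Klf2+ S1pr1+ cells against 660, 692, 917 and 873 in the others (-0.70 ± 0.06). Cd3g, Cd3e and Trac, chains of the T cell receptor complex, fell by 0.32, 0.32 and 0.27 on the log2 scale. Summed markers of CD4+ or regulatory T cells came to 6.40 to 10.7 CPM in members and 13.5 to 21.8 in other cells, and Cd4 was at 0 in members of anti-PD-1 replicates 1 and 2 and IgG. S1pr1 is also an endothelial gene, and the 12 endothelial markers summed to 14.1 to 29.8 CPM in members and 12.4 to 16.1 in other cells, with Kdr, Tek, Emcn, Cldn5 and Plvap at 0 in members of all 4 libraries. Tek was at 0 in the other cells of all 4 libraries too, and Kdr and Cldn5 in those of anti-PD-1 replicates 1 to 3. Of the 3 tested endothelial markers, Pecam1 was higher.

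Markers of other types were compared as summed CPM. The summed ranges in members and other cells were 89.1 to 130 and 55.3 to 257 CPM for 9 B or plasma cell genes, 10.7 to 26.8 and 9.27 to 14.4 for 11 myeloid genes and 8.34 to 16.01 and 10.0 to 33.0 for 10 tumour epithelial genes. Within libraries the B or plasma cell sum was higher in members in 3 of 4, at 94.1, 89.1, 97.5 and 130 against 61.7, 55.3, 257 and 78.7 CPM, with Cd79a, Ms4a1, Jchain and Iglc2 at 0 in members of all 4 libraries. The myeloid sum was higher in members in 3 of 4, at 21.1, 23.9, 26.8 and 10.7 against 10.04, 9.27, 14.4 and 12.02 CPM, with Csf1r, Adgre1, S100a8 and S100a9 at 0 in members of all 4. Ms4a1 was also at 0 in the other cells of anti-PD-1 replicates 1 to 3, and Adgre1 and S100a8 in those of replicates 1 and 2. The endothelial sum was higher in members in 4 of 4. Fibroblast genes reached at most 0.687 CPM and erythroid genes at most 0.440 in members. Cd79b, Ighm, Cd68 and Itgam were called higher among the B cell and myeloid markers, and Ikzf4 of the regulatory T cells and Igha were called lower. Without the 11, 4, 2 and 0 members that had at least 10 UMIs of such markers, which were 4.93%, 2.11%, 0.930% and 0% of members against 1.46%, 1.03%, 0.998% and 0.226% of the other cells, the share difference was 5.37 points.

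The level of the markers followed the number of defining UMIs. Cells with neither transcript (19652), with Klf2 only (2145), with S1pr1 only (802), with 1 UMI of each (130), with 1 of either and more of the other (298) and with at least 2 of each (310) were summed within libraries, and medians over the 4 libraries are given without a test. Klf3 was 3.19, 10.2, 7.17, 13.5, 51.9 and 63.1 CPM in these classes. Rasgrp2 was 16.5, 38.8, 28.3, 49.1, 137 and 172 CPM. Cells just inside the rule, with 1 UMI of each, therefore lay nearer to the cells just outside it than to the members with more UMIs for these 2 markers.

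Other genes had already moved at 1 UMI of each. Tcf7 was 8.45, 22.5, 18.0, 44.4, 54.2 and 70.0 CPM over the same classes, and Havcr2 was 158, 137, 142, 86.4, 90.3 and 74.3. Gzmb was 1625, 1666, 1184, 868, 1084 and 936 CPM, and Spp1 was 137, 82.6, 44.0, 7.44, 20.4 and 9.95. The Gzmb median in cells with Klf2 only was thus close to that in cells with neither transcript, whereas it was lower wherever S1pr1 was read. Mki67 was 185, 245, 222, 330, 322 and 359 CPM.

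**Figure D4:**
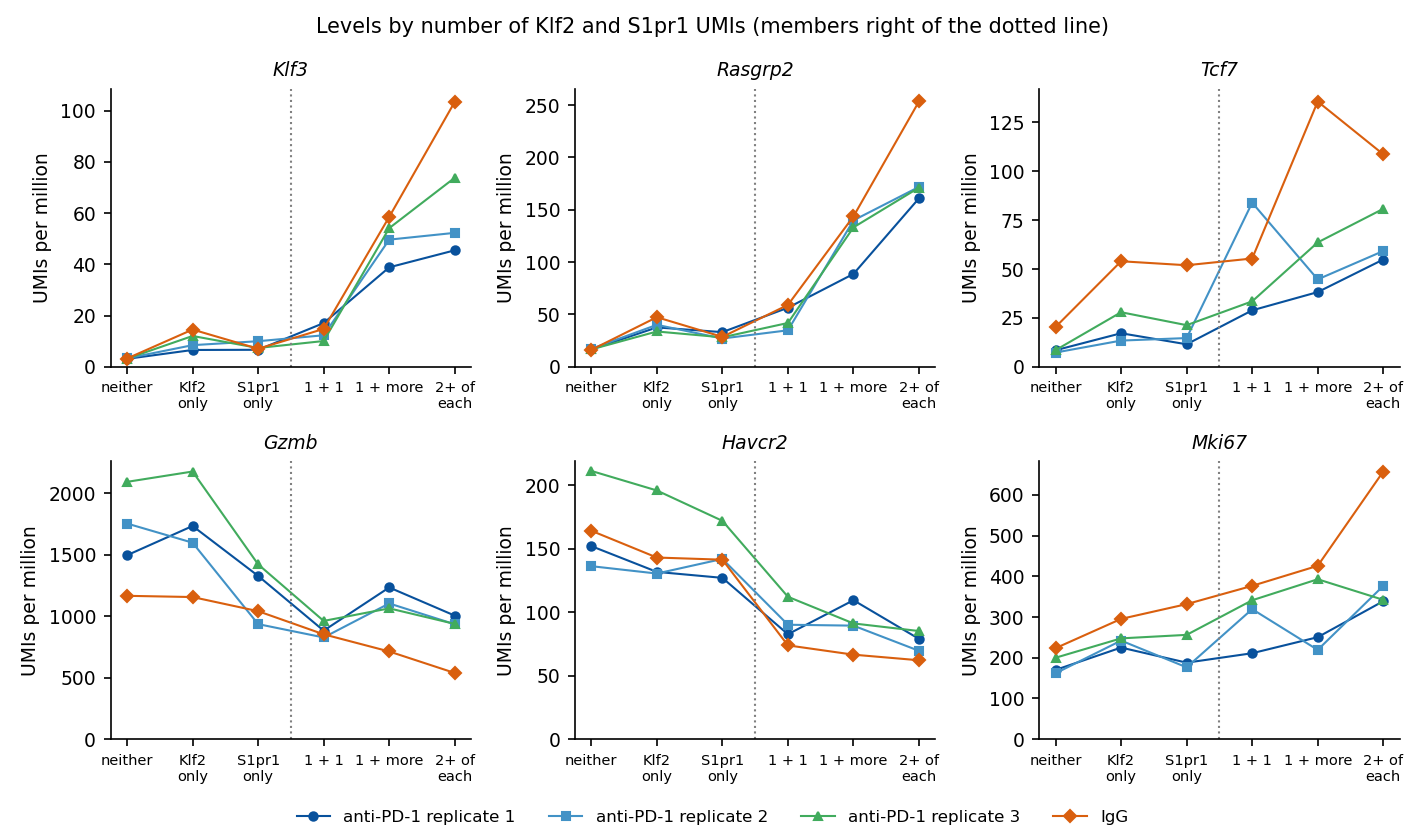
CPM (y axis) of 6 genes in cells grouped by their Klf2 and S1pr1 UMIs (x axis), with a line per library and the members right of the dotted line. Klf3 and Rasgrp2 are highest in cells with at least 2 UMIs of each gene, with medians of 63.1 and 172 CPM, and Gzmb and Havcr2 are lower in members than in cells with neither transcript.

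Precursor-like T cells are often defined by Tcf7 and Slamf6, so the Klf2+ S1pr1+ cells were set beside the single-guide cells with a UMI of each. There were 1370 such Tcf7+ Slamf6+ cells, and 199 cells met both rules, which were 27.0% of the Klf2+ S1pr1+ cells and 14.5% of the Tcf7+ Slamf6+ cells. These 199 were left out of both sums, so the comparison set 539 Klf2+ S1pr1+ cells against 1171 Tcf7+ Slamf6+ cells, and the CPM values in it are those of these cells. The fit was repeated with the 199 kept among the Klf2+ S1pr1+ cells, a setting chosen after seeing the data. Of 9221 genes tested, 1122 (12.2%) were higher and 1010 (11.0%) lower in Klf2+ S1pr1+ cells (edgeR quasi-likelihood, library as a block). The comparisons share the Klf2+ S1pr1+ cells, and each gene's values are given side by side without a test between them.

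Against the Tcf7+ Slamf6+ cells, 11 of 19 homing receptors and integrins were higher and 3 lower (median 0.27). Of 9 genes of tissue residency, 3 were higher and 1 was lower (median 0.10), unlike in the contrast with all other cells. With the cells of both rules kept, Cxcr6 rose by 0.40 ± 0.06 and Rgs1 by 0.21 ± 0.07, and Itgae did not pass (adjusted p = 0.17 by edgeR). Rasgrp2 was 117, 134, 131 and 162 CPM against 34.0, 38.3, 28.3 and 20.99 (2.09 ± 0.13), Klf3 rose by 1.44 ± 0.14 and Cxcr3 by 0.60 ± 0.09. Ccr2 was 69.9, 82.6, 122 and 94.6 CPM against 24.4, 23.8, 24.8 and 15.3 (1.98 ± 0.13). Among genes with an average log2 CPM above 4, the other largest rises were Gzma (1.77 ± 0.23), Lgals3, a galectin (1.64 ± 0.07), and Ifitm1, an interferon-induced membrane protein (1.56 ± 0.19). Of 13 genes of killing, 9 were higher and 2 lower (median 0.36), with Gzmb at 1218, 1127, 1163 and 891 CPM against 595, 596, 308 and 281 (1.32 ± 0.10). Klrg1, whose average lay below that limit, at 2.99 log2 CPM, rose by 3.25 ± 0.29 and was 11.04, 12.1, 27.9 and 18.9 CPM against 0.937, 0.744, 3.997 and 1.18.

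Ccr7, Id3 and Bach2 were lower in the same comparison. Ccr7 was 12.3, 27.2, 3.65 and 11.04 CPM in the 539 Klf2+ S1pr1+ cells against 121, 112, 112 and 91.2 in Tcf7+ Slamf6+ cells (-3.09 ± 0.20), whereas all 738 had 23.3, 34.3, 17.5 and 15.5 CPM. Leaving out the cells of both rules thus lowered Ccr7 in every library. With them kept, Ccr7 was still lower (-2.29 ± 0.12, adjusted p = 4.9e-15 by edgeR). Id3 fell by 1.64 and Bach2 by 2.29 on the log2 scale, and with these cells kept the values were -0.65 ± 0.19 (adjusted p = 0.013 by edgeR) and -2.08 ± 0.17. In the same comparison Lef1 was higher (0.83 ± 0.12) and Il7r did not pass the test (-0.22 ± 0.19, adjusted p = 0.44 by edgeR), except without anti-PD-1 replicate 3 (adjusted p = 0.037). In the memory and precursor list, which was tested without Tcf7 and Slamf6, 1 of 14 was higher and 7 were lower (median -0.39). With the cells of both rules kept the counts were also 1 and 7 (median -0.35), beside 13% higher and 11.6% lower over all genes. The comparison cells were chosen for 2 genes of this list, and the part of that choice in the other members of the list was not tested. Among genes with an average log2 CPM above 4, the other largest falls were Dapl1, known from naive and memory T cells (-3.42 ± 0.34, and -1.85 ± 0.18 with the cells of both rules kept), Penk (-3.31 ± 0.18), Tnfsf8, which encodes the CD30 ligand (-2.87 ± 0.28), and Tbc1d4, a regulator of glucose transporter traffic (-2.85 ± 0.15). Cytokine genes were lower in 11 of 15 tests and higher in 1, which was Ccl5 (1.23 ± 0.10).

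Cycling genes separated the 2 populations too. All 22 G2/M genes were higher in Klf2+ S1pr1+ cells than in Tcf7+ Slamf6+ cells (median 1.02), with Birc5 at 328, 342, 312 and 369 CPM against 127, 132, 134 and 183, and 20 of 22 G1/S genes were higher as well (median 0.63). Median depth was 17016, 14405, 10756 and 6912.5 UMIs in all Klf2+ S1pr1+ cells and 16096, 13951, 11492.5 and 7671 in all Tcf7+ Slamf6+ cells. Inhibitory receptors were split, with 3 of 12 higher and 6 lower. Havcr2 rose by 0.66 ± 0.10, and Cd160 fell by 0.83 and Lag3 by 0.51 on the log2 scale.

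Klf2+ S1pr1+ cells were not uniform in Tcf7. The 259 members with a Tcf7 UMI, 72, 73, 73 and 41 per library, were compared with the 479 without, by the same test. Median depths were 17963, 12490, 11239 and 6647 UMIs with Tcf7 and 16941, 14916, 10698 and 7060 without. Of 7905 genes, 110 (1.39%) were higher and 90 (1.14%) lower in members with Tcf7. Ccr7 was 49.3, 63.2, 47.8 and 22.8 CPM with Tcf7 and 10.2, 16.5, 2.07 and 11.2 without (2.36 ± 0.22). It was thus higher in the members with Tcf7 in every library. Id3 rose by 2.40 ± 0.26, Il7r by 0.96 ± 0.18 and Slamf6 by 0.88 ± 0.10. The call of Il7r was lost without anti-PD-1 replicate 1 (adjusted p = 0.14 by edgeR).

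Other rises were Samd3 (1.52 ± 0.24), the survival kinase Pim2 (1.13 ± 0.22) and the tetraspanin Cd9 (1.03 ± 0.17). Gzma was 443, 454, 812 and 193 CPM with Tcf7 and 1100, 822, 3025 and 3274 without (-1.73 ± 0.15), and Gzmb fell by 1.19 on the log2 scale. DESeq2 did not call Gzma (adjusted p = 0.15). Il2ra fell by 1.21, the cell cycle inhibitor gene Cdkn2a by 1.05 and AA467197 by 1.03. Of 11 genes of killing, 6 were lower and none higher, and of 20 glycolysis genes 8 were lower and none higher. G2/M genes were little divided, with 1 of 22 lower, and Klf3 and Rasgrp2 did not pass the test (0.49 ± 0.15 and -0.05 ± 0.10, adjusted p = 0.063 and 0.88 by edgeR), though Klf3 did without anti-PD-1 replicate 2 (adjusted p = 0.0054). Cxcr3 rose by 0.36 ± 0.09 (adjusted p = 0.022 by edgeR), with 135, 162, 171 and 137 CPM with Tcf7 and 101, 134, 121 and 148 without, so it was higher in 3 of 4 libraries. Its call was lost with DESeq2 (adjusted p = 0.45), with no filter on low counts (0.16) and without any one anti-PD-1 replicate (0.13, 0.078 and 0.24), and it was at -0.20 after thinning. Pim2 was not called without replicate 2 (adjusted p = 0.068), nor Cdkn2a without replicate 1 (0.058) or replicate 3 (0.085).

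**Figure D5:**
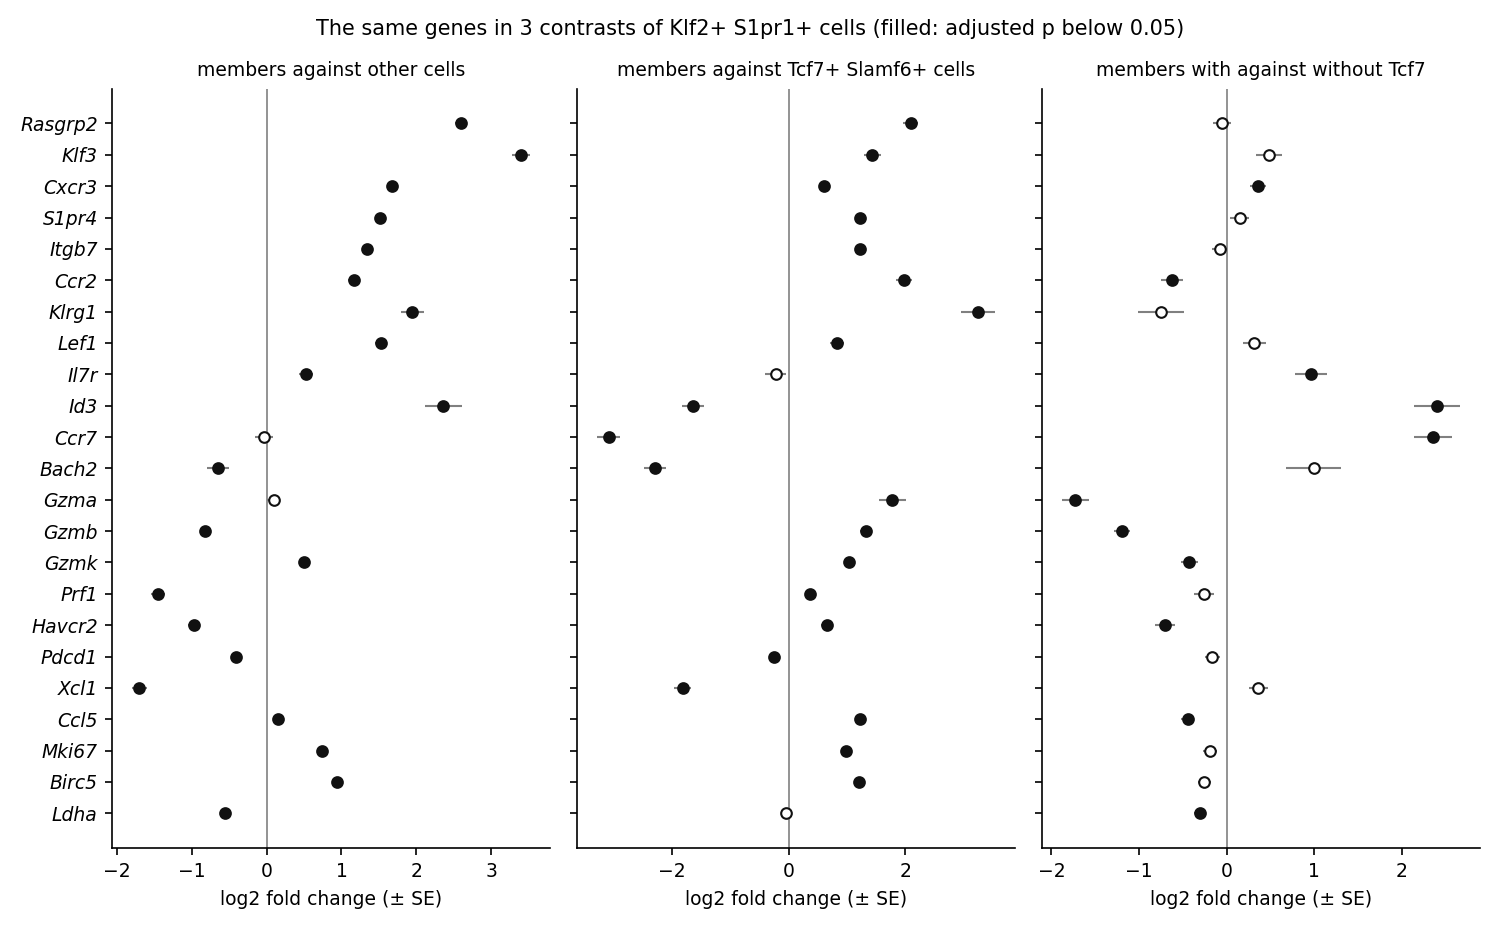
Log2 fold change with its SE (x axis) of 23 genes in 3 contrasts, namely Klf2+ S1pr1+ cells against other cells, against Tcf7+ Slamf6+ cells, and with against without a Tcf7 UMI. Filled points passed an adjusted p of 0.05. The second contrast leaves out the 199 cells of both rules. Rasgrp2 is higher in the first 2 contrasts (2.60 and 2.09) and near 0 in the third, and Ccr7 is near 0 in the first, at -3.09 in the second and at 2.36 in the third.

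The contrast of Klf2+ S1pr1+ cells with other cells was then compared between treatments, as an interaction of state and antibody in edgeR. Of 11777 genes 1 passed (0.00849%), 555 had an unadjusted p below 0.05 and DESeq2 called 1. The gene was Gzma, at 880, 681 and 2278 CPM in Klf2+ S1pr1+ cells of the anti-PD-1 replicates against 863, 766 and 2285 in the other cells, and at 2149 against 1268 in IgG. Its difference was higher in IgG by 0.79 ± 0.11 on the log2 scale (adjusted p = 0.024 by edgeR). The 1 IgG library gives no spread of its own, so the fit took the spread from the anti-PD-1 libraries alone, with 2 residual degrees of freedom. The call was lost without anti-PD-1 replicate 1 (adjusted p = 0.44) and at 4000 UMIs per cell (adjusted p = 0.86). Within Klf2+ S1pr1+ cells, 0 of 9872 genes (0.0%) differed between anti-PD-1 and IgG by edgeR and 0 by DESeq2, with 639 at an unadjusted p below 0.05. Without anti-PD-1 replicate 3 the same test called 508 genes, from the pair that may be 1 pool of cells, so this count rests on which libraries enter.

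Guides were not part of the rule, and Klf2+ S1pr1+ cells carried 229 of the 276 guides, with members for all 83 target genes and for the nontargeting guides. Nontargeting guides gave 86 members, from 25 of 323 cells, 21 of 379 and 27 of 742 with anti-PD-1 and 13 of 1286 with IgG. Of 82 tested by edgeR on cell numbers, the nontargeting guides counted as 1 target, 1 passed (1.22%), which was Pik3cd, the catalytic subunit delta of PI3K. Its cells gave 5 members of 25, 2 of 28, 27 of 213 and 4 of 238, or 20%, 7.14%, 12.7% and 1.68%, against 7.74%, 5.54%, 3.64% and 1.01% with nontargeting guides. The log2 fold change was 1.61 ± 0.35 (adjusted p = 0.048), 4 targets had an unadjusted p below 0.05 and DESeq2 called 0. No target passed without any one of anti-PD-1 replicates 1, 2 and 3. Cells of a guide within a library may descend from the same transferred cell, which the test covers only as spread between libraries.

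All 38 of these cells carried the same guide, the most members of any guide and 5.15% of the total. Summed over libraries, this guide gave 38 members of 504 cells (7.54%). Single nontargeting guides ran from 0%, as in guide 5 with 0 of 84 cells, to 9.09% in guide 3 with 8 of 88. These sums do not account for the mix of libraries of each guide, and the spread between nontargeting guides was not used in the test. The sequence of the Pik3cd guide is shown because the result rests on it, with the last 10 bases before the PAM position in capitals.
Pik3cd guide 1: gttgtgtgttCAACTACCGG

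The gene lies on chromosome 4 at 149649168 to 149702571 on the minus strand in GRCm38. The longest run that this guide shared with any of its 14 GENCODE M21 transcripts was 8 bases, whereas 232 of 245 guides matched a transcript of their target in full, so where it cuts is not given here. Pik3cd was 62.3, 31.8, 66.2 and 58.4 CPM in cells with the guide and 51.2, 44.4, 58.7 and 60.8 in cells with nontargeting guides. The next targets, B3gnt2 (0.89 ± 0.36) and Mdh2 (0.99 ± 0.42), both had an adjusted p of 0.78 by edgeR. Elovl1, a fatty acid elongase, gave 9 members of 50 cells, 8 of 70, 2 of 70 and 0 of 105, where 0 of 105 allows a share of up to 2.86% by the limit of 3 counts and 3.45% by the exact 95% interval (0.62 ± 0.40, adjusted p = 0.83 by edgeR).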

How the data were processed

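Single-cell RNA sequencing with guide capture was performed on 4 libraries, 3 from anti-PD-1 and 1 from IgG treated mice, and samples were grouped by their treatment label. The authors deposited raw UMI counts per gene and barcode with guide calls per barcode, made with Cell Ranger 3.1.0 and, in the submitters' processing notes, mm10. The submitters' notes also name Seurat and R 3.6.3, but no normalised values were used here. Filters and cell classes are therefore those stated here and need not match the study's own clusters.

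Barcodes with 1 called guide and at most 10% mitochondrial UMIs were kept, and Klf2+ S1pr1+ cells were those with at least 1 UMI of each gene. The members, gene lists and tests were chosen with earlier results of these data known. UMIs were summed per library and class, and cells were not treated as replicates. Genes passing filterByExpr were scaled by TMM and tested with the quasi-likelihood F-test of edgeR 4.0.16 in R 4.3.3, with the library as a block and Benjamini-Hochberg adjustment at 0.05. Both sums of a library come from the same tissue, which is where the pairing comes from. For guide targets the cells of each library were pooled over guides with the number of cells as an offset. Differences in shares between treatments were tested by exact permutation over libraries, and shares were given exact binomial 95% intervals. Because depth differed, shares were also computed after thinning each cell to 4000 UMIs. Scripts were tested on simulated data with known fold changes. Single genes named from the contrast with other cells were the 12 largest rises and 12 largest falls with average log2 CPM above 4 and the same sign in each library, leaving out Klf2, S1pr1, predicted, mitochondrial and ribosomal genes. From gene lists the 4 smallest p were named, from other contrasts 5 genes in each direction, and from targets with at least 50 cells the 3 smallest p, with Pik3cd and Elovl1. Of the genes picked by this rule, 1 is left out and not reported here. Alternatives were DESeq2 1.42.0, RLE size factors, no filter on low counts, UMI limits, thinning, leaving out each library, and subsets of cells. Python 3.11.15, numpy 2.4.6, scipy 1.17.1 and pandas 2.3.3 were used for shares and matplotlib 3.10.9 for figures. Gene positions are from GENCODE M21 on GRCm38 and promoters from RefSeq on GRCm38.p6. The titles of anti-PD-1 replicates 1 and 2 share a name with numbered endings, and the pair was treated as a possible batch or 1 pool of cells. The sources used here do not state how animals were assigned to libraries. Barcodes without exactly 1 guide entered no test, and their shares are given apart as values.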

Additional observations from a re-analysis of the deposited data

Results flagged for a closer look

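Barcodes outside the single-guide cells also held both transcripts. Among barcodes with no called guide, 12.5%, 11.7% and 3.93% had a Klf2 and an S1pr1 UMI in anti-PD-1 replicates 1, 2 and 3, a mean of 9.36% ± 4.72 (SD, n = 3), against 1.78% in IgG. Among barcodes with at least 2 called guides the shares were 11.8%, 6.19% and 4.38%, a mean of 7.44% ± 3.85 (SD, n = 3), against 2.21% in IgG. Both sets lay outside the single-guide cells of the report, no test was run on them, and all 3 anti-PD-1 libraries were above the control library in each. The median depth was 13281.5, 13008 and 7630 UMIs against 4172.5 without a guide and 22024, 21501 and 20789.5 against 10594 with several guides, and the part of depth in these shares was not tested.

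The Gzma difference between Klf2+ S1pr1+ cells and other cells was lower in the anti-PD-1 libraries than in the single IgG library by edgeR's interaction test, by -0.79 on the log2 scale, the only gene past the threshold there. It lost its adjusted p with thinned cells, with at least 2 UMIs of each defining gene and without anti-PD-1 replicate 1, where its adjusted p was 0.86, 0.85 and 0.44. Its value ran from -0.54 to -0.84 over all alternatives. The interaction compares 3 anti-PD-1 libraries with 1 IgG library, whose spread was assumed to be that of the anti-PD-1 libraries, since 1 library gives none. Gzma was 880, 681 and 2278 CPM in Klf2+ S1pr1+ cells under anti-PD-1 and 2149 under IgG, so replicate 3 lay nearer to IgG than to the other anti-PD-1 libraries.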

How the results depend on the processing

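The share difference between treatments kept its direction in each alternative, at 1.80 to 5.52 points, and at 4.33 to 7.06 points without 1 anti-PD-1 library. The cycling difference stayed between 9.39 and 15.5 points, and between 11.9 and 15.99 without 1 library. The 3579 genes that differed from other cells became 1369 after thinning, 643 among cells with no Mki67, Top2a or Mcm UMI, 2173 among cells with no Mki67 or Top2a UMI, 515 among cells with a nontargeting guide and 1566 in anti-PD-1 replicate 3 and IgG alone, sets with fewer UMIs or libraries, and 1520 with no library block. They numbered 2519 to 3240 without 1 library. Signs turned for Rrm2 (-0.0776) and Uhrf1 (-0.46) among cells with no Mki67 or Top2a UMI, for Uhrf1 after thinning (-0.32), and for Ccl5 (-0.24) and Fos (-0.0256) among cells with nontargeting guides. The interaction with treatment called 0 genes after thinning, 3 with comparison cells matched in depth and 0 to 19 without 1 anti-PD-1 library. The contrast of Klf2+ S1pr1+ cells between treatments, with 0 genes called, gave 2 after thinning and 0 to 508 without 1 anti-PD-1 library, the 508 without replicate 3. Against Tcf7+ Slamf6+ cells, 2132 genes became 545 after thinning, 1072 with DESeq2 and 1600 to 1837 without 1 library. With against without Tcf7, 200 genes became 53 after thinning, 51 with DESeq2, 104 with no filter on low counts and 118 to 205 without 1 library, and Cxcr3 turned to -0.20 after thinning. Medians of lists over 0.15 in size kept their sign in each setting for the contrast with other cells. Those that moved by over 1.5 times include, after thinning, cytokines (-1.91), glycolysis (-1.30), effector factors (-0.54) and interferon (0.58), and with at least 2 UMIs of each gene memory genes (0.15) and effector factors (-0.53). Inhibitory receptors were at -0.50 in anti-PD-1 replicates 1 and 2 alone. Of the targets, 1 became 0 with DESeq2, 2 with guides in place of targets and 0 to 1 without 1 library. The cause of the other moves was not tested. The filter on cells with no Mki67 or Top2a UMI, the fit that kept the cells of both rules and, for the interaction, the matched cells and the 2 UMI minimum, were chosen after seeing the data, as was counting anti-PD-1 replicates 1 and 2 as 1 sample (4.70 points). The single IgG library and its depth limit every comparison of treatments.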
